A study of Homo sapiens with 12 samples.

Results

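In peak lists of N4-acetylcytidine (ac4C) from H1 human embryonic stem cells, 4329 peaks lay opposite a peak of another gene on the other DNA strand. A peak was taken as opposing if it shared at least 1 bp with a peak that stood on the other strand of the same chromosome and carried a different gene identifier, in the same list or in another, with both peaks spanning at most 1000 nt. Of 140401 peaks in the 4 lists, 106436 spanned at most 1000 nt (called short peaks here), so the opposing peaks were 4.07% of the short peaks and 3.08% of all peaks. They formed 3757 overlaps between 709 gene pairs with 1374 genes. The members were chosen by position, strand, span and gene identifier, so the existence of the overlaps is the choice itself and not a result.

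H1 is an established line of human embryonic stem cells. In ac4C-RIP-seq an ac4C antibody pulls down RNA fragments, which are then sequenced. NAT10 knockdown (KD) cells, which carried a lentiviral short hairpin RNA against NAT10 with GFP, were compared with wild-type (WT) cells. For KD cells the labels give GFP enrichment, 0.5 ug per ml puromycin and a culture time of 48 h. They give no puromycin or culture time for WT cells. They name no control hairpin, so the knockdown and its delivery cannot be told apart. The 4 lists are named after the 2 KD and the 2 WT immunoprecipitation libraries. Both genotypes share the antibody, the RNA fragmentation to about 200 nt and the directional library kit. The labels call the RNA polyadenylated while the protocol removes ribosomal RNA, and this difference is not resolved by the sources. Nothing says that the libraries of a genotype came from separate cultures, so p-values measure only the spread between these libraries.

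NAT10 acetylates cytidine in several classes of RNA, and ac4C in mRNA has been linked to RNA stability and translation. Many human genes overlap a neighbour on the other strand. In convergent pairs the 3′ ends overlap, in divergent pairs the 5′ ends overlap, and in nested pairs one gene lies within the span of the other; antisense transcripts are often long noncoding RNAs named after the coding gene they face. Because 2 such transcripts share the same stretch of DNA, only the strand of a read tells them apart. The kit keeps strand, but whether the authors' counting used it is not given in the sources used here. It is therefore not known whether reads of a gene and of its antisense partner were kept apart in these lists.

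The locus of the miR-302 and miR-367 cluster, abundant microRNAs of human embryonic stem cells, shows opposing peaks with matching edges. Their host gene MIR302CHG lies on the minus strand of chromosome 4 within LARP7, which encodes a protein that binds the 7SK small nuclear RNA. The mature 3p sequences are given to show what the host transcript carries, from RefSeq on GRCh38.p14, with the seed (bases 2 to 8) in capitals; the 4 members of the miR-302 family share the seed AAGUGCU and miR-367 has another.
hsa-miR-302a-3p: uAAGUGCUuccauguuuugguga
hsa-miR-302b-3p: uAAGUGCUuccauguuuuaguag
hsa-miR-302c-3p: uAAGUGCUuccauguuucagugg
hsa-miR-302d-3p: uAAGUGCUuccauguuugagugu
hsa-miR-367-3p: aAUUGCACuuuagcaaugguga
The 5 hairpins occupy chr4:112647874-112648557 (hg38). LARP7 and MIR302CHG peaks overlapped 2 and 3 times in the KD lists, and 5 and 5 times in the WT lists. The overlaps lay between 112646577 and 112647802, so all were 3′ of the hairpins on the host's strand, and none covered a hairpin. The gap from the last overlapping base to the nearest hairpin was 624 and 749 nt in the KD lists, against 72 and 149 nt in the WT lists. The MIR302CHG peaks of any length touched 1 hairpin in each KD list, against 0 and 1 in the WT lists. In these overlaps the start of the LARP7 peak lay exactly 1 nt after that of the MIR302CHG peak in 2 of 2 and 3 of 3 overlaps of the KD lists, and in 4 of 5 and 5 of 5 overlaps of the WT lists. In 2 of these overlaps, 1 in the second KD list and 1 in the first WT list, the 2 peaks also had the same score.

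**Figure D1:**
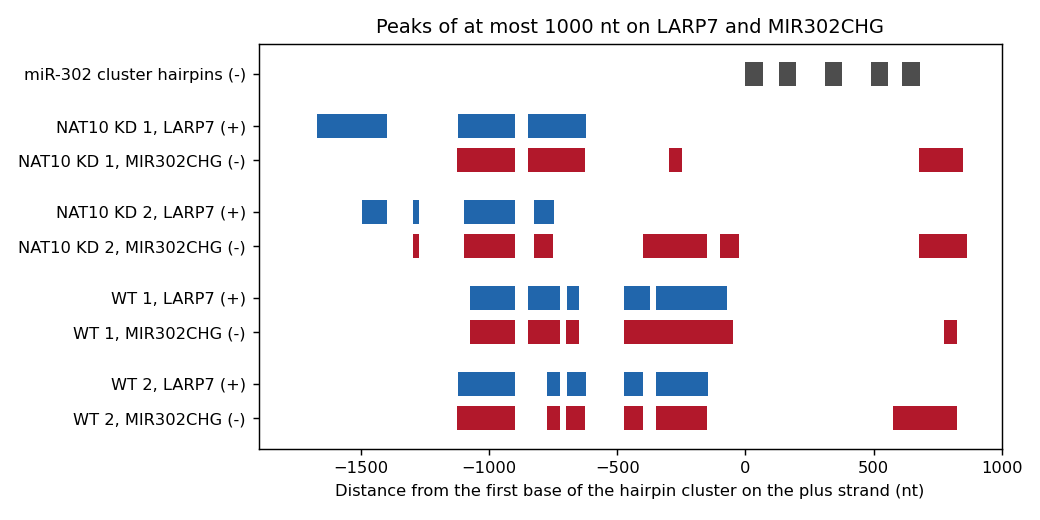
Peaks of at most 1000 nt on LARP7 (plus strand, blue) and MIR302CHG (minus strand, red) in each list, with the 5 hairpins of the cluster in grey; the horizontal axis is the distance in nt from the first base of the hairpin cluster. Where both genes have a peak, most blue and red bars end at nearly the same places, and the MIR302CHG peaks right of 0 have no LARP7 peak opposite them.

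The upstream ends of genes gave a second setting for opposing peaks. Promoter windows of RefSeq (250 bases before to 50 after the start of a gene, GRCh38.p14) overlapped same-list opposing peaks of that gene in 108 cases from 73 gene pairs. The windows of ATRAID, BCL2L12 and TBCB are shown because their overlaps recurred in more than 1 list; they were chosen after their values were seen. Capitals mark the bases under both strands' peaks in the list with the longest overlap inside the window, all on the plus strand. In each window shown, the marked bases lie before the annotated start of the gene.
ATRAID: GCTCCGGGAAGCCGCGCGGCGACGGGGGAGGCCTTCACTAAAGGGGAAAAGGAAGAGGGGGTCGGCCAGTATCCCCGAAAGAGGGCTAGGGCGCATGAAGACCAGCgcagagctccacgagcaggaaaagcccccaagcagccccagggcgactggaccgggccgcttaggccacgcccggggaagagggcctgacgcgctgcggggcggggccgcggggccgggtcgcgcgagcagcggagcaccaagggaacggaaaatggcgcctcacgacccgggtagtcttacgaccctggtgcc
BCL2L12: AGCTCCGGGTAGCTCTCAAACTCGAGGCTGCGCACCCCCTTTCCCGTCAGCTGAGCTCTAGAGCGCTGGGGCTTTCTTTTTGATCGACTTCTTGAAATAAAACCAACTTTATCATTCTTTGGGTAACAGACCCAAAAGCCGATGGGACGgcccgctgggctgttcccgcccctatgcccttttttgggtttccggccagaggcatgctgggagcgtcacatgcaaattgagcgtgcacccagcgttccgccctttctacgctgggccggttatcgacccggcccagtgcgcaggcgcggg
TBCB: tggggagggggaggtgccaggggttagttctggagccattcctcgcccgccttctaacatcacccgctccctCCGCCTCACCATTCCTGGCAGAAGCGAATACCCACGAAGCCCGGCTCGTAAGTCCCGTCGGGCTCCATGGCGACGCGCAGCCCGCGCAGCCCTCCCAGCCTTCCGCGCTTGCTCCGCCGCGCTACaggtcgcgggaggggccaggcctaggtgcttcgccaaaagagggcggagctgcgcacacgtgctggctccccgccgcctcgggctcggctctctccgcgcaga
The ATRAID window (chr2:27212110-27212409) faces SLC5A6, a vitamin transporter, and 106 of its bases lay under both strands' peaks in the second KD list; overlaps fell in it in both KD lists and in the second WT list. The BCL2L12 window (chr19:49665683-49665982) faces IRF3, a transcription factor of the interferon response, with 149 such bases in the second KD list and overlaps in both KD lists only. The TBCB window (chr19:36114717-36115016) faces POLR2I, a subunit of RNA polymerase II, with 125 such bases in the second WT list and overlaps in both WT lists only. TBCB and POLR2I had opposing peaks in all 4 lists, those of the KD lists outside the window. Runs of the form CNNCNNCNNCNN, the spaced cytidine pattern described for ac4C in mRNA, were searched on both strands with overlapping matches counted. The search covered each whole window, most of which lies before the gene start, and not only the bases under peaks. Such runs were in 97.2% of the 108 windows (median 9 matches), against 90.3% of all 35116 windows (median 7). The 108 windows had a median G+C content of 63.5%, against 58.7% over all windows, and a match is only a description of the letters.

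Opposing peaks made up between 3.87 and 4.51% of the short peaks of a list. By the wider rule there were 837 and 1236 opposing peaks in the KD lists, and 1136 and 1120 in the WT lists. As shares of the 20755 and 27410 short peaks of the KD lists these were 4.03% (exact 95% Clopper-Pearson interval 3.77 to 4.31%, counting error only) and 4.51% (4.27 to 4.76%). In the WT lists, with 29313 and 28958 short peaks, they were 3.88% (3.66 to 4.1%) and 3.87% (3.65 to 4.1%). These intervals treat peaks as independent. Opposing peaks come with partners and share genes, so the intervals are likely too narrow even for counting error. The share averaged 4.27 ± 0.337% in KD lists and 3.87 ± 0.00548% in WT lists (SD, n = 2 each), a difference of 0.399 percentage points with p = 0.33 in a two-sided exact permutation test, the smallest p that 2 against 2 can give. Without KD replicate 2 the difference was -0.0645 points, so its direction rested on that library.

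With both peaks required in the same list, 694 and 1067 peaks of the KD lists were opposing, against 1008 and 986 of the WT lists. The share averaged 3.62 ± 0.388% in KD lists and 3.42 ± 0.0239% in WT lists (SD, n = 2 each; exact permutation p = 1), and the KD minus WT difference was -0.0781 points without KD replicate 2. Such peaks joined 228 and 323 gene pairs in the KD lists, against 260 and 286 in the WT lists. The KD mean of 276 ± 67.2 pairs and the WT mean of 273 ± 18.4 pairs (SD, n = 2 each) differed by 2.5, less than the spread between replicates (exact permutation p = 1). The difference was -45 pairs without KD replicate 2 and -10.5 pairs without WT replicate 1, against 50 pairs without KD replicate 1. A difference between genotypes in the number of opposing peaks was therefore not detectable with 2 libraries each.

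Partners stood mostly in the list of the peak itself. Of the 4329 opposing peaks, 3755 (86.7%) had a partner in their own list. Of the 3757 overlaps, 1961 (52.2%) joined peaks of the same list, 875 joined the 2 lists of a genotype and 921 joined lists of different genotypes. Each list offers 1 own list, 1 list of the same genotype and 2 of the other. In the KD lists, 82.9% and 86.3% of opposing peaks had a partner in their own list, 49.3% and 31.8% had one in the other KD list, and between 19.1% and 21.8% had one in a given WT list. The WT lists gave 88.7% and 88% for their own list and 35.6% and 35.3% for the other WT list. A given KD list held a partner for between 15.2% and 24.6% of the WT peaks.

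Matching edges were more frequent in the same list than between lists. Both edges lay within 25 nt of each other in 1102 of 1961 same-list overlaps (56.2%). The share was 52.9% and 48.7% in the KD lists, against 61% and 61.8% in the WT lists. Between different lists it was 194 of 1796 overlaps (10.8%), with 12.2% between the lists of a genotype and 9.45% between genotypes. Start and end were identical in 52 same-list overlaps and in 3 overlaps between lists. The width was equal in 37.9% of same-list overlaps and in 8.02% of overlaps between lists. On the same strand of the same list, 2 overlaps joined peaks of different genes.

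**Figure D2:**
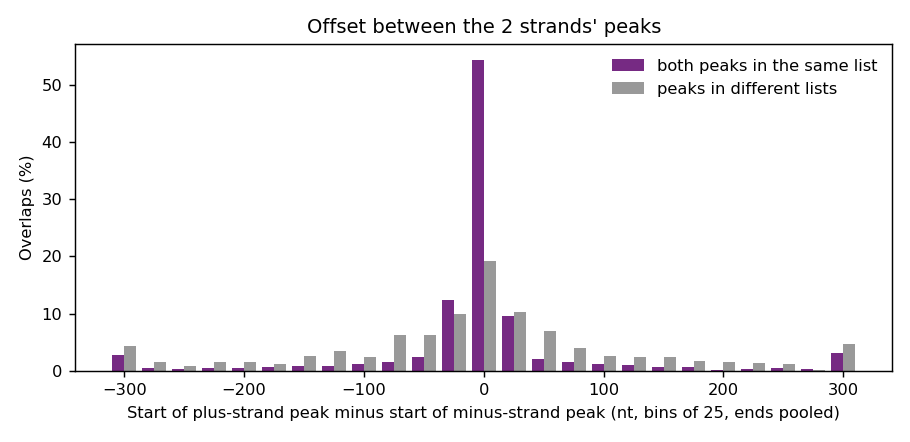
Start of the plus-strand peak minus start of the minus-strand peak in nt, in bins of 25 nt with larger offsets pooled in the end bins, as a percentage of 1961 same-list overlaps (purple) and 1796 overlaps between different lists (grey). The middle bin holds 54.4% of same-list overlaps and 19.2% of those between lists.

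The authors' scores of opposing peaks also ran together within a list. The score has no stated meaning, so each was turned into a percentile of its own list. Spearman's rho between the percentiles of the plus and the minus peak was 0.634 and 0.523 in the KD lists (n = 363 and 561 overlaps), against 0.606 and 0.691 in the WT lists (n = 526 and 511). Over the 1796 overlaps between lists it was 0.18. The percentiles of 2 opposing peaks differed by a median of 11.5 points in the same list and 25.9 points between lists. Scores were equal, to a relative tolerance of 1e-09, in 91 same-list overlaps (4.64%) and in 0 between lists. Between 1.45 and 3.74% of all peaks of a list shared their score with another peak of that list, and scores of separate libraries need not have ties. That range counts peaks of any span tied with any peak of the list. The 4.64% counts overlaps tied with 1 given partner, so the 2 are not like for like. These correlations are across overlaps, which share genes and libraries, and are given as a description.

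**Figure D3:**
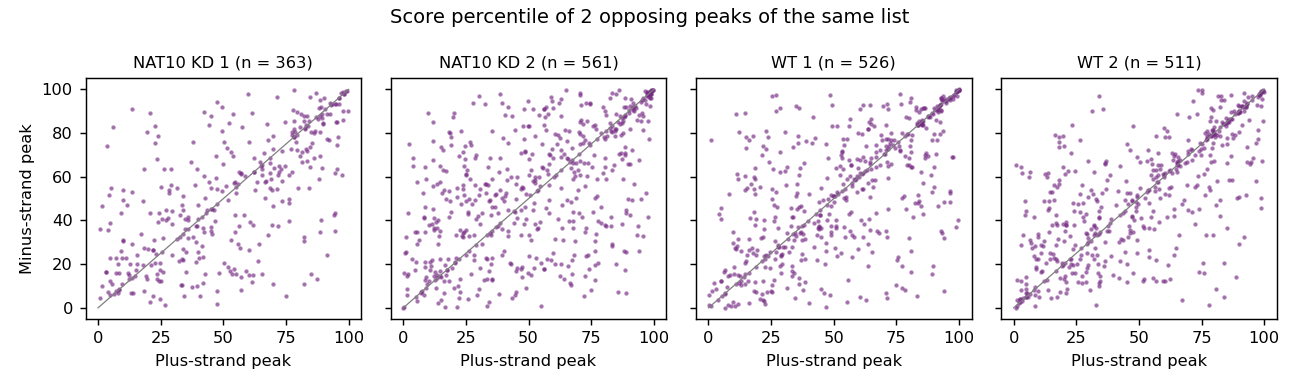
Score percentile of the minus-strand peak against that of the plus-strand peak for each same-list overlap, 1 panel per list, with the line of equality. Points gather along the line in all 4 lists, with rho of 0.634, 0.523, 0.606 and 0.691 from left to right, and many lie far from it.

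Most loci found again in another list had the peaks of both strands there. Each same-list overlap was taken as a locus and looked up in the other lists for a short peak of either gene that touched it. A locus of one KD list had both strands' peaks in the other KD list in 36.4% (132 of 363) and 22.1% (124 of 561) of cases. For the WT lists the shares were 26.8% (141 of 526) and 27.4% (140 of 511). Between genotypes both peaks were found again for 8.56 to 15.9% of loci. Of the loci with any peak, the share with both was 65.3 to 74.5% within a genotype and 55.6 to 67.6% between genotypes.

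The peak of one strand was found again more often where that of the other strand was. Where the plus-strand peak was found in the other list of the genotype, the minus-strand peak was found too in 83 to 87.5% of loci, against 7.28 to 19.1% where it was not. Between genotypes the values were 69.6 to 81.6% and 2.46 to 5.27%. Read from the minus strand, the plus-strand peak accompanied it in 75.2 to 84.4% of loci within a genotype, against 5.83 to 14.1% without it. A locus found again on a single strand was on either strand: loci of the KD lists had the plus peak alone 27 and 25 times and the minus peak alone 39 and 41 times in the other KD list, and loci of the WT lists had the plus peak alone 28 and 20 times and the minus peak alone 26 and 28 times in the other WT list.

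**Figure D4:**
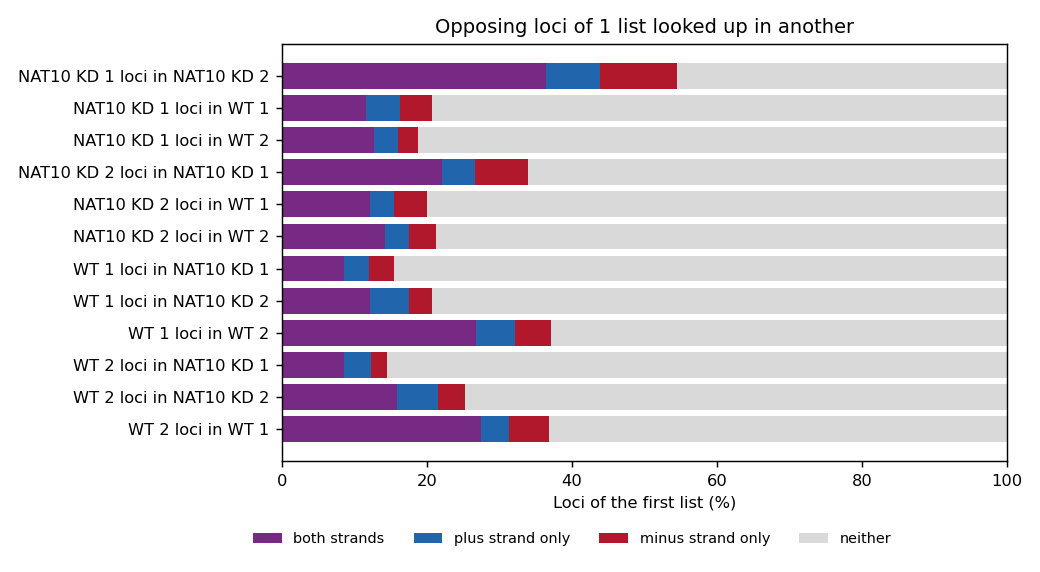
Share of same-list opposing loci of one list (first name) at which another list (second name) has a short peak of both genes, of the plus-strand gene only, of the minus-strand gene only or of neither, in percent. Bars for 2 lists of the same genotype reach 33.9 to 54.5% with any peak, and bars across genotypes reach 14.5 to 25.2%.

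Opposing peaks ranked above other short peaks of their list by score, which the choice of members did not use. Their median percentile was 52.3 and 53.4 in the KD lists, where other short peaks had 45.6 and 45.4. In the WT lists it was 52.6 and 49.5, against 46.6 and 46.2 for other short peaks. The difference was above 0 in 4 of 4 lists, with a mean of 6.02 ± 2 percentile points (SD, n = 4 lists). A two-sided exact sign-flip test gave p = 0.125, the smallest it can give with 4 lists. The lists share genes and loci, and a partner may stand in another list, so the 4 differences are not independent. The difference averaged 7.36 ± 0.931 points in KD lists and 4.67 ± 1.99 points in WT lists (SD, n = 2 each; exact permutation p = 0.33). Without WT replicate 2 the KD minus WT difference was 0.887 points, against 2.69 with it. Median widths were 75 nt in both KD lists and 100 nt in both WT lists for opposing peaks, and 75, 75, 75 and 100 nt for other short peaks in the same order of lists.

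Overlaps were short: their median was 50 bp and the longest was 798 bp. Just inside the limits, 14 overlaps were of exactly 1 bp and 150 of 2 to 10 bp, and 24 opposing peaks spanned 901 to 1000 nt. Just outside, 124 pairs of opposite peaks were 0 to 9 bp apart, and 22 peaks of 1001 to 1100 nt would have joined under a longer limit.

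Convergent genes were the most frequent arrangement among the gene pairs, and convergent pairs of 2 coding genes made up 286 of 709 (40.3%). Of the 709 gene pairs, 477 (67.3%) joined 2 protein-coding genes and 178 (25.1%) joined a coding gene and a long noncoding RNA, by RefSeq classes; 1360 of the 1374 genes were matched. By RefSeq spans and the strands of the lists, 1164 gene pairs with short peaks overlapped on opposite strands, and 540 of them (46.4%) had opposing peaks. The share was 60.5% of convergent pairs (380 of 628), 26.4% of divergent pairs (86 of 326) and 35.2% of nested pairs (74 of 210). Their shared spans had medians of 2280, 661 and 6380 bp in the same order, so the shares are not like for like. Another 156 gene pairs had opposing peaks although their RefSeq spans did not overlap, and 13 could not be placed. Overlaps of convergent pairs lay a median of 397 nt from the nearer 3′ end, and 55.6% of 1148 were within 500 nt of one. In divergent pairs they lay a median of 100 nt from the nearer 5′ end, and 93.1% of 160 were within 500 nt of one. The shared span of pairs with opposing peaks had a median of 2090 bp in convergent and 606 bp in divergent pairs. It is bounded by the 3′ ends in convergent and by the 5′ ends in divergent pairs. Closeness to these ends therefore follows at least in part from the arrangement and is given as a description. No genome was used here, so whether an overlap lies in an exon or an intron was not determined.

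**Figure D5:**
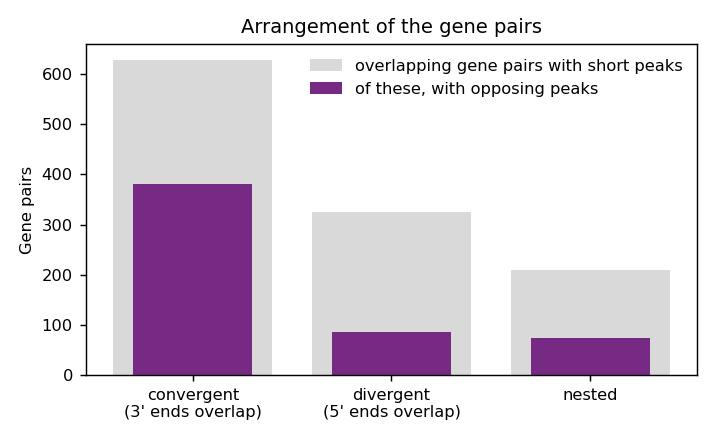
Number of opposite-strand gene pairs whose RefSeq spans overlap and whose genes both have short peaks (grey bars, 628 convergent, 326 divergent and 210 nested), and how many of them have opposing peaks (purple bars, 380, 86 and 74). Convergent pairs are the most numerous and have the largest share with opposing peaks.

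Same-list opposing peaks stood in all 4 lists for 32 gene pairs and in 3 lists for 70. Another 54 pairs had them in both KD lists and neither WT list, 50 in both WT lists and neither KD list, and 80 in 1 list of each genotype. The largest classes were pairs seen in a single list, 197 in 1 KD list and 194 in 1 WT list, and 32 pairs faced each other only between lists. Without KD replicate 1, 183 pairs stood in the remaining KD list and in neither WT list, and without KD replicate 2 there were 122; without WT replicate 1, 154 stood in the remaining WT list and in neither KD list, and without WT replicate 2 there were 140.

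For 9 of the 32 pairs seen in all 4 lists (28.1%) the summed overlap was larger in both WT lists than in either KD list, and for 5 (15.6%) it was larger in both KD lists. Over all 677 pairs with same-list overlaps the shares were 12.3% and 10.9%, but pairs seen in 1 list cannot be separated this way, so the shares are not like for like. LARP7 with MIR302CHG was among the 9, with 448 and 297 bp in the KD lists against 723 and 620 bp in the WT lists.

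Among coding pairs seen in all 4 lists, MSH6, a DNA mismatch repair protein, and FBXO11, the substrate-binding part of a ubiquitin ligase, converge on chromosome 2. Their peaks overlapped 2 and 2 times in the KD lists, over 150 and 125 bp in sum, and 8 and 7 times in the WT lists, over 917 and 1192 bp. The sums of the KD and WT lists did not overlap for this pair, and MSH6 itself had fewer short peaks in KD (5 and 9) than in WT (18 and 21). The longest overlap, 564 bp in the second WT list (chr2:47807692-47808255), joined peaks that were offset by 11 nt at both ends, at percentiles 32.2 for MSH6 and 38 for FBXO11. NR2C2, an orphan nuclear receptor, and MRPS25, a protein of the mitochondrial ribosome, shared 349 and 247 bp in the KD lists and 344 and 1126 bp in the WT lists, with the second WT list standing apart. Their longest overlap of 272 bp joined peaks at percentiles 83.2 and 84.8.

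HNRNPA3, an RNA-binding protein, and NFE2L2, the transcription factor NRF2 of the oxidative stress response, shared 169 and 513 bp in the KD lists and 646 and 746 bp in the WT lists, although their RefSeq spans lie apart. The longest overlap was 448 bp, at chr2:177221594-177222041 in the first WT list. RABEP1, an effector of the endosomal GTPase RAB5, and NUP88, a nuclear pore protein, shared 120 and 45 bp in KD and 784 and 225 bp in WT. FARP1 and the kinase gene STK24 shared 40 and 270 bp in KD and 425 and 620 bp in WT. In these 3 pairs both WT sums exceeded both KD sums.

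Other pairs ran the other way or mixed. NAXE, which repairs a damaged form of NADH and NADPH, and GPATCH4 shared 451 and 751 bp over 5 and 9 overlaps in the KD lists, against 88 and 169 bp over 2 and 4 overlaps in the WT lists. CNNM2, which acts in magnesium balance, and NT5C2, a cytosolic nucleotidase, shared 364 and 164 bp in KD and 400 and 239 bp in WT. ILK, the integrin-linked kinase, and TAF10, a subunit of TFIID, shared 271 and 350 bp in KD and 100 and 445 bp in WT. ZRANB1 and the corepressor gene CTBP2 shared 125 and 400 bp in KD and 25 and 75 bp in WT. In the second KD list the 2 peaks of their longest overlap were the same 200 nt (chr10:124985992-124986191) at the same percentile of 53.4. PRELID1 and MXD3 had an identical 175 nt peak in the second WT list at percentile 33.9. The sums of the genotypes overlapped for CNNM2 with NT5C2 and for ILK with TAF10, and both KD sums were larger for NAXE with GPATCH4 and for ZRANB1 with CTBP2.

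Opposing peaks did not always have like scores. In the second KD list the overlap of TBCB, a tubulin-folding cofactor, with POLR2I reached 175 bp, with percentiles of 32.6 and 93.3. In the first KD list ZMYM4 and KIAA0319L shared 111 bp at percentiles 87.4 and 13.1. TSPAN31 and CDK4, the cyclin-dependent kinase of G1, shared 84 and 142 bp in KD and 75 and 58 bp in WT, with percentiles of 84 and 65.4 in the longest overlap. HNRNPUL1 and TGFB1 shared 75 and 200 bp in KD and 50 and 85 bp in WT. The other coding pairs of all 4 lists among the first 30 by rank were ITPR3 with UQCC2, SLC25A26 with LRIG1, NELFCD with CTSZ, PMPCB with DNAJC2, PHC1 with M6PR, EXOSC8 with SUPT20H and MPI with FAM219B, whose longest overlaps were 213, 200, 167, 125, 123, 100 and 100 bp.

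Genes with symbols marked -AS, -DT, -OT or -IT, among them antisense and divergent transcripts, were often opposing. They were 169 of 324 such genes with a short peak (52.2%), against 1374 of 10761 genes in all (12.8%). They took part in 177 of the 709 pairs and in 8 of the 32 pairs seen in all 4 lists. Since the antisense and divergent genes of this group are defined by an opposite neighbour, this share is a description. STARD4-AS1 and NREP shared 25 and 153 bp in the KD lists, against 212 and 837 bp in the WT lists. The antisense RNA of PRC1, which bundles microtubules in dividing cells, shared 25 and 163 bp with PRC1 in KD and 225 and 508 bp in WT. For both, the WT sums exceeded the KD sums. EPB41L4A-AS1 with EPB41L4A had 443 and 186 bp in KD and 486 and 207 bp in WT, with no such separation. PCBP1, a poly(C)-binding protein, shared 175 and 249 bp in KD and 420 and 248 bp in WT with PCBP1-AS1, which starts from the opposite strand. In the second KD list the peaks of their longest overlap were offset by 1 nt, at percentiles 90.5 and 92.2.

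More noncoding partners recurred. MTMR3 with HORMAD2-AS1 shared 153 and 213 bp in KD and 71 and 72 bp in WT. MAZ, a zinc finger transcription factor, shared 184 and 234 bp with MVP-DT in KD and 141 and 127 bp in WT. PRMT5, an arginine methyltransferase, shared 75 and 27 bp with PRMT5-AS1 in KD and 122 and 72 bp in WT. JPX and FTX, both long noncoding RNAs of the X inactivation centre, shared 75 and 550 bp in KD and 628 and 138 bp in WT, a spread within each genotype as large as that between them. CCDC144NL-AS1 with USP22 had 24 and 98 bp in KD and 24 and 147 bp in WT. STX5-DT with WDR74 shared 43 and 736 bp in KD and 696 and 0 bp in WT.

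Of the 54 pairs with opposing peaks in both KD lists only, the pair with the longest overlap was PINK1, a kinase of mitochondrial quality control, with its antisense RNA PINK1-AS. They shared 147 and 772 bp in the KD lists and 0 bp in both WT lists. The overlap of the second KD list ran over chr1:20650454-20651225, at percentiles 61.8 and 79.1. TRAF7 and CASKIN1 shared 275 and 575 bp, MDC1-AS1 and the DNA damage mediator gene MDC1 250 and 539 bp, and BCL2L12 and IRF3 255 and 615 bp in the KD lists. Others were FABP5 with LNMICC at 342 and 342 bp, AMN with CDC42BPB at 619 and 501 bp, CCDC86 with PTGDR2 at 300 and 316 bp, and CISD3 with PCGF2 at 575 and 15 bp. CIITA, the coactivator of MHC class II genes, shared 175 and 350 bp with DEXI.

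In 16 of those 54 pairs both genes still had short peaks somewhere in a WT list, in 28 only 1 gene had, and in 10 neither had. The 10 included CIITA with DEXI and CISD3 with PCGF2, and outside the naming rule, chosen after their values were seen, TAGLN with PCSK7 (97 and 438 bp in KD) and MYCL-AS1 with MYCL (25 and 6 bp in KD). BCL2L12 had 0 and 1 short peaks in the WT lists and IRF3 0 and 4, so in the second WT list that pair had peaks without an overlap.

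Of the 50 pairs seen in both WT lists only, LIMD1 and LIMD1-AS1 had the longest overlap. They shared 0 bp in both KD lists and 394 and 519 bp in the WT lists, and the 372 bp overlap of the second WT list (chr3:45677294-45677665) joined peaks at percentiles 79.4 and 81.4. CHROMR and PRKRA, an activator of the kinase PKR, shared 350 and 226 bp in WT. RBBP4, a histone-binding protein of several chromatin complexes, shared 514 and 439 bp with SYNC in WT, and RBBP4 kept 3 and 6 short peaks in KD while SYNC had 0. ENTPD1 and ENTPD1-AS1 shared 517 and 534 bp, MEIOC and CCDC43 394 and 573 bp, LHFPL5 and the splicing kinase gene SRPK1 508 and 234 bp, and DNAH11 and CDCA7L 119 and 350 bp in WT. ARG2 with VTI1B, CIBAR1 with RBM12B and FAM149B1 with DNAJC9 had 250 and 35, 128 and 247, and 225 and 119 bp in WT. In 27 of the 50 pairs both genes had short peaks in a KD list, in 19 only 1 gene had, and in 4 neither had.

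Genes with opposing peaks were present in one genotype only at shares near or under those of all genes. Of the 1374 genes, 113 (8.22%) had a short peak in both KD lists and neither WT list, and the background over 10761 genes was 8.47%. In both WT lists and neither KD list stood 66 (4.8%), where the background was 7.03%. Presence in every list was 490 of 1374 genes (35.7%), against 3196 of 10761 genes in all (29.7%). A gene must have at least 1 short peak to be opposing, and those with more peaks have more chances: the median was 9 short peaks over the 4 lists, against 7 for all genes.

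Among small RNA and host genes, 12 of 65 with short peaks were opposing (18.5%), against 12.8% of all genes. Apart from MIR302CHG, SNHG29 with LRRC75A shared 0 and 50 bp in KD and 244 and 69 bp in WT, and SNHG7 with DIPK1B shared 238 and 221 bp in KD and 0 and 38 bp in WT. SNHG14, whose transcript runs antisense through UBE3A, shared 0 and 120 bp with it in KD and 0 and 81 bp in WT. MIR23AHG with ZSWIM4 (421 bp) and MIR497HG with RNASEK-C17orf49 (99 bp) were seen in the second KD list only, and MIRLET7A1HG with LINC02603 (274 bp) and RNU6-395P with POLR2D (92 bp) in the second WT list only. SNHG10 with GLRX5 and SNHG8 with PRSS12 stood in 1 list of each genotype.

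Histone and zinc finger families hold near-identical copies, and reads can be placed on either copy. Read placement was not examined here for the pairs below, many of which do not join 2 copies. Histone genes gave 2 pairs with 4 of 44 genes (9.09%), against 12.8% of all genes. The pseudogenes H2BC19P and H2BC20P shared 0 and 25 bp in KD and 0 and 150 bp in WT, and H1-10 shared 0 bp with H1-10-AS1 in both KD lists and 125 and 125 bp in the WT lists. Zinc finger genes gave 17 pairs with 26 of 383 genes (6.79%), against 12.8% of all genes. ZNF587 and ZNF814 shared 0 and 170 bp in KD and 320 and 345 bp in WT, ARHGEF40 with ZNF219 shared 122 and 94 bp in KD and 0 bp in WT, and ZNF511 with TUBGCP2 shared 0 bp in KD and 100 and 25 bp in WT. TUBGCP4 with ZSCAN29 stood in both WT lists, and 5 of the remaining zinc finger pairs named by rank, those of ZNF652, ZNF263, ZNF224, ZNF337 and ZNF562, stood in the first WT list alone; ZNF687 with ZNF687-AS1 stood in the first KD list alone.

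Ribosomal protein genes, cytosolic and mitochondrial, gave 16 pairs with 19 of 200 genes (9.5%), against 12.8% of all genes. MRPS22 with COPB2 shared 0 and 42 bp in KD and 292 and 683 bp in WT. MRPS34 with EME2 shared 224 and 0 bp in KD and 0 and 199 bp in WT. NCAPD2 with MRPL51 (148 and 23 bp) and MRPL20 with MRPL20-AS1 (56 and 75 bp) stood in both KD lists only, and MRPS18C with ABRAXAS1 (50 and 175 bp) and RPL36A with GLA (61 and 75 bp) in both WT lists only. MRPL47 with ACTL6A stood in 1 KD list, and RPL30 with RPL30-AS1 and MRPL43 with SEMA4G in 1 WT list each. The mitochondrial genome gave 1 pair, MT-TI and MT-TQ, tRNA genes on opposite strands whose annotated ends overlap: they shared 3 bp in each WT list, and MT-TQ had 0 short peaks in both KD lists.

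Over all peaks, the targeted gene NAT10 had 0 and 0 peaks in the KD lists, against 7 and 9 in the WT lists. By short peaks, 756 of 10761 genes (7.03%) stood in both WT lists and neither KD list. A missing peak is also not a measure of RNA level, so these values cannot check the knockdown. Of 10 markers of human embryonic stem cells, 6 and 8 had a peak in the KD lists, against 10 and 10 in the WT lists. They had 43 and 50 peaks in KD and 89 and 86 in WT. DNMT3B and PRDM14 had no peak in either KD list, and POU5F1, LIN28A, LIN28B, TERF1 and DPPA4 had fewer peaks in both KD lists than in either WT list. The remaining markers did not: NANOG had 6 and 5 peaks in KD and 5 and 4 in WT. SOX2 had 5 and 8 in KD and 6 and 4 in WT, and SALL4 had 7 and 11 in KD and 9 and 8 in WT. Peak numbers are not RNA levels. The share of all genes with fewer peaks in both KD lists was not computed, so nothing about cell state follows from these markers. Of 9 markers of other germ layers and trophectoderm, 0 had a peak in any list. None of these 20 genes was an opposing gene. The first KD list was the shortest, with 27787 peaks, against 36476 in the second KD list and 37988 and 38150 in the WT lists. Without it the KD minus WT difference in the same-list share was 0.471 percentage points, against 0.196 with it.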

How the data were processed

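The score of each peak is the authors' deposited value, 1 list per library and not pooled; the sources used here do not give its meaning, the peak caller, threshold, control library, annotation or use of strand. Tools named in the submitters' processing notes, with no role or order, are HISAT2 2.2.1, bedtools 2.30.0, fastp 0.21.1 and SAMtools 1.12; the build is hg38. Lists were tied to libraries by name; the input and IgG controls were not used. Read depth is unknown. Starts, deposited from 0, are given from 1.

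Overlaps were computed on peak spans with Python 3.11.15, pandas 2.3.3, NumPy 2.4.6 and SciPy 1.17.1, and the search was tested on simulated peaks. Gene arrangement used RefSeq spans (GRCh38.p14), matched by symbol. The members and lists were chosen with earlier results of these data known. Named pairs were the first 30 by number of lists, then longest overlap; up to 10 each seen in both lists of 1 genotype only; and up to 10 for each family, by the same order. A few pairs that this rule names are not reported here. Libraries were compared by exact permutation, 2 against 2. Replicate numbers shared by the genotypes were checked as pairs: deviations of peak numbers per gene correlated by 0.0152, so they were not treated as pairs.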

Additional observations from a re-analysis of the deposited data

How the results depend on the processing

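The 2 libraries per genotype, unknown read depth and 25 nt edge limit bound these results. KD minus WT shares of same-list opposing peaks were -0.133 points with a minimum overlap of 50 bp and -0.00365 points in the stronger 50% of each list, and ran from -0.0781 to 0.471 points leaving out 1 library each. For shares by the wider rule they were -0.0141 points at 50 bp and ran from -0.0645 to 0.471 points. Numbers of same-list pairs gave -10.5 with a span limit of 500 nt, -16 at 50 bp and -14.5 in the stronger 50%, and -45 to 50 leaving out 1 library; percentile differences ran from 0.887 to 3.21. The cause was not tested. With a replicate block the values were 0.196, 0.399, 2.5 and 2.69, which must equal those without it. The smallest p of the exact permutation test with 2 pairs is 0.5, so the block could not give a call.

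The other settings were added after seeing the data. Fewer peaks gave fewer pairs: in the stronger 50%, 428 in any list, 10 in every list, 26 in both KD lists only and 26 in both WT lists only, and at 50 bp 17 in every list. Leaving out 1 library gave 566 to 627 pairs in any list, 45 to 57 in every remaining list, 67 to 183 in KD only and 63 to 154 in WT only. The share of overlaps within the same list was 56.1% at 50 bp, 55.6% where the overlap covered at least 50% of the shorter peak, 55.1% in the stronger 50% and 61.1 to 63.5% leaving out 1 library. The share with both edges within 25 nt stayed between 50.9 and 61.9%.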
